A study of Mus musculus with 2 samples.

Results

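Adipocyte nuclei high in Npr3, Tshr, Nnat and Peg3 made up 1201 of the 20146 nuclei sequenced from mouse mesenteric perivascular adipose tissue, the fat around the arteries of the gut. They were chosen on measured RNA levels. A nucleus first passed an adipocyte gate, which needed at least 5000 unique molecular identifiers (UMIs, each standing for 1 captured RNA molecule), under 5% mitochondrial UMIs, at least 20 UMIs of Pparg and Adrb3 per 10000, and under 3 per 10000 of Flt1, Mrc1, F13a1, Wt1 and Ptprc. Of the 5405 nuclei that passed, the 1802 highest in the lipogenic genes Acly and Elovl6 were set aside and are called lipogenic nuclei. The other nuclei were ranked by the summed UMIs of Npr3, Tshr, Nnat and Peg3 per 10000, with both libraries in 1 ranking. The 1201 highest are the high nuclei described here, and the 2402 below them are called low nuclei. High, low and lipogenic nuclei are ranges of scores cut from the adipocytes, not separate cell types.

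Each genotype was represented by 1 library of nuclear RNA from mice aged 11 weeks, made from snap-frozen tissue with 10x Genomics droplet 3' chemistry v3.1. The flox control library came from mice with floxed Prdm16 alleles (genotype Prdm16flox). The library labelled Prdm16 cKO came from mice that carried the same floxed alleles and Cre recombinase (AdopiQCre+ in the labels, read here as Adipoq-driven Cre, which acts in adipocytes). Both groups therefore share the floxed allele, and neither the number of animals in a library nor the floxed exon is given in the labels. With 1 library per genotype no difference has a replicate check, all intervals below cover counting error only, and no p-value is given.

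The 4 selection genes have different roles. Npr3 encodes the natriuretic peptide clearance receptor, which binds natriuretic peptides and removes them, and so limits the cyclic GMP signal that these heart-derived hormones send to fat cells. Tshr encodes the thyrotropin receptor, which signals through cyclic AMP and is made by adipocytes as well as by the thyroid. Nnat (neuronatin, a small membrane protein of the endoplasmic reticulum) and Peg3 (a zinc finger protein) are imprinted genes, expressed from the paternal allele. Pck1, the cytosolic phosphoenolpyruvate carboxykinase that feeds glycerol synthesis in fat, and Plagl1, an imprinted zinc finger transcription factor, were named with these genes as markers but had no part in the score.

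The promoter windows of these genes are shown because several of them belong to pathways that use cyclic AMP. Each window holds the 250 bases before the gene's start in RefSeq (build GRCm38.p6), 5′ to 3′ on the gene's strand. Capitals mark TGACG or its reverse complement CGTCA, the core of the cyclic AMP response element. Rapgef3, a cyclic AMP sensor, is shown with them as a gene outside the score that was higher in high nuclei.
Npr3, chr15:11907372-11907621, minus strand: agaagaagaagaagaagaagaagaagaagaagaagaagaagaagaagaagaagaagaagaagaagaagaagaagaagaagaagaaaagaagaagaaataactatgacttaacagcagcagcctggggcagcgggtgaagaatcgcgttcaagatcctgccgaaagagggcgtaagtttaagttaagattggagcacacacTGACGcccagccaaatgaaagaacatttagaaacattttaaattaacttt
Nnat, chr2:157559828-157560077, plus strand: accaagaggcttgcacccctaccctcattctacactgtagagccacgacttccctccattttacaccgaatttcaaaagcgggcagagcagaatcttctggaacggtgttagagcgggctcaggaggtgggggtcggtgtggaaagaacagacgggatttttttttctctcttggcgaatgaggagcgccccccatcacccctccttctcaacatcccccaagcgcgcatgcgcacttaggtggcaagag
Peg3, chr7:6730420-6730669, minus strand: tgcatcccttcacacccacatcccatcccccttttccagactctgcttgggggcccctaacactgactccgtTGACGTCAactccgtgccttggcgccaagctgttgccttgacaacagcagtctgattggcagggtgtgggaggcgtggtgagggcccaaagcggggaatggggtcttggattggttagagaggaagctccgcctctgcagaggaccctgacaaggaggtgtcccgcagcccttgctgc
Pck1, chr2:173152823-173153072, plus strand: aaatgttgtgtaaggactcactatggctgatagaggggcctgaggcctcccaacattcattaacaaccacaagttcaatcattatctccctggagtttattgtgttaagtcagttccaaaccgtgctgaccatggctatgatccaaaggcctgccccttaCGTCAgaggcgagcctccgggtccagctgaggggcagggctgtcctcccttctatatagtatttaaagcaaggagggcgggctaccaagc
Rapgef3, chr15:97767667-97767916, minus strand: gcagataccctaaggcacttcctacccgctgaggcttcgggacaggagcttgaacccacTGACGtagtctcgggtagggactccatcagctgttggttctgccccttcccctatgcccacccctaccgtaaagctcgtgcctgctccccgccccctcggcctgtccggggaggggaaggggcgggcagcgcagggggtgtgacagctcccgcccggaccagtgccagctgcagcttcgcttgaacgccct
The 5 letters were found in 4 of the 12 windows at hand for the 21 genes looked up (the 6 marker genes and the 15 genes highest in high nuclei), namely those of Npr3, Peg3, Pck1 and Rapgef3. In Peg3 the forward and reverse matches overlap. They were found in 17.8% of all 32851 RefSeq windows of this length. Tshr and Bmp3 are named only.

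Libraries held 108987031 UMIs in 12060 barcodes (flox control) and 70895490 in 8086 (cKO-labelled), and they shared 28 barcodes, none of them of a high nucleus. Control high nuclei had a median of 13733 UMIs and cKO-labelled high nuclei of 12935.5, against 12739 and 12172 in low nuclei. RNA released from broken cells also enters droplets. In 566 control and 323 cKO-labelled lymphocyte nuclei (at least 10 UMIs of Bank1, Pax5, Themis and Skap1 per 10000), 4 adipocyte markers (Adipoq, Plin1, Lipe and Cidec) reached 37.8% and 46.5% of their level in high nuclei. The median depth of these lymphocyte nuclei was 4278.5 and 4288 UMIs.

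Prdm16, the targeted gene and a transcriptional regulator of thermogenic fat, gave 248 UMIs in the high nuclei of the control and 110 in those of the cKO-labelled library. In counts per 1000000 UMIs of the nuclei summed (CPM), this was 19.1 and 25.7, a log2 ratio of 0.43 (95% interval 0.09 to 0.76). Prdm16 was thus not lower in the library labelled Prdm16 cKO, and it was also higher there in low nuclei (17.9 and 23.5 CPM) and in lipogenic nuclei (15.8 and 24.6 CPM). Lymphocyte nuclei held 18.0 and 27.5 CPM, close to the adipocyte levels. Since reads near the 3' end can come from a transcript that lacks a floxed exon, these counts leave the deletion unchecked.

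All 8 adipocyte markers were detected in the high nuclei of both libraries. Pparg and Adrb3 were required by the gate, and the other 6 (Adipoq, Plin1, Lipe, Cidec, Acvr1c and Lep) summed to 4993 CPM in control high nuclei and 4739 CPM in cKO-labelled ones. Their sums were 4465 and 4223 CPM in low nuclei and 3721 and 3366 CPM in lipogenic nuclei, so high nuclei were above both by this measure. Pparg went the other way, at 2624 and 3093 CPM in high nuclei, 3259 and 3303 CPM in low nuclei and 3603 and 3481 CPM in lipogenic nuclei. With Pparg and Adrb3 included, all 8 markers summed to 8408 and 8709 CPM in high nuclei and to 8389 and 8294 CPM in low nuclei. Of 6 brown fat markers, Ucp1 and Elovl3 were at 0 in the high nuclei of both libraries, and the others were detected. The 6 summed to 37.1 and 40.0 CPM in high nuclei and to 41.7 and 48.0 CPM in low nuclei. Of markers of other cell types, progenitor or fibroblast genes summed to 124 and 149 CPM, mesothelial genes to 78.9 and 81.4 CPM, macrophage genes to 85.0 and 74.6 CPM, vascular endothelial genes to 50.2 and 44.0 CPM, and smooth muscle genes to 13.9 and 10.1 CPM. The gate capped Flt1, Mrc1, F13a1, Wt1 and Ptprc, so the endothelial, macrophage and mesothelial sums are in part set by the rule. The 5 Schwann cell markers summed to 447 and 398 CPM, of which Scn7a alone gave 430.1 and 375.0 CPM, while Sox10 was at 0 in the high nuclei of both libraries.

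High nuclei were a larger share of the adipocytes in the control library. They were 895 of 2946 gated nuclei there (30.4%, exact Clopper-Pearson 95% interval 28.7 to 32.1), and the cKO-labelled library had 306 among 2459 (12.4%, 11.2 to 13.8). Part of this gap arose at the first cut, which set aside 23.4% of the control and 45.3% of the cKO-labelled nuclei as lipogenic. Among the nuclei left, high nuclei were still 39.7% of control nuclei (37.6 to 41.7) and 22.7% of cKO-labelled nuclei (20.5 to 25.1). The whole score was shifted: its median over the nuclei left was 25.9 per 10000 for control and 17.5 for cKO-labelled nuclei, and its 95th percentile was 67.6 and 57.4.

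**Figure D1:**
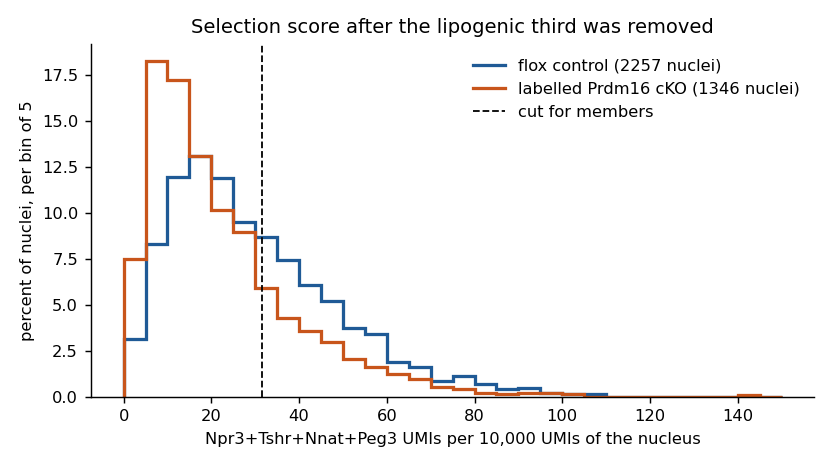
Distribution of the selection score (summed UMIs of Npr3, Tshr, Nnat and Peg3 per 10000 UMIs of a nucleus, x axis) as a percent of nuclei per bin of 5 (y axis), for the 2257 control and 1346 cKO-labelled nuclei left after lipogenic nuclei were set aside. Both curves have 1 broad hump with no gap at the cut (dashed line), and the cKO-labelled curve lies to the left.

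The cut at 31.56 per 10000 fell on a slope, not in a gap. The lowest high nucleus scored 31.56 and the highest low nucleus 31.53, and 184 high and 175 low nuclei lay within 10% of the cut. The median score was 44.9 in high nuclei and 16.0 in low nuclei, with a maximum of 144. Lipogenic nuclei had a median of 11.4, and 91 of them (5.05%) would have passed the cut had they stayed in the ranking.

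The levels of the selection genes follow from the choice and are given as a description. Npr3 was at 1493 CPM in control high nuclei and 1120 CPM in cKO-labelled ones, against 483 and 372 CPM in low nuclei. Tshr was at 1838 and 1523 CPM against 902 and 742 CPM. Both receptors were thus lower in the cKO-labelled library within high as well as within low nuclei. Nnat went the other way, with 1377 CPM in control and 2015 CPM in cKO-labelled high nuclei, against 252 and 275 CPM in low nuclei. Peg3, the least abundant of them in UMIs, was at 188 and 140 CPM against 125 and 106 CPM.

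Nnat was spread widely from nucleus to nucleus. Among control high nuclei its 5th percentile was 0, its median 6.85 and its 95th percentile 46.9 UMIs per 10000, and among cKO-labelled ones these were 0, 20.01 and 53.4. Npr3 had medians of 12.5 and 8.10 per 10000, and Tshr of 16.6 and 13.5. Accordingly, different genes carried the score in different nuclei. Nnat alone supplied most of the score (over 50% of it) in 24.1% of control and 44.1% of cKO-labelled high nuclei, Tshr in 29.7% and 18.3%, Npr3 in 19.6% and 13.4%, and Peg3 in none. High nuclei of the cKO-labelled library were therefore chosen through Nnat more often than those of the control.

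**Figure D2:**
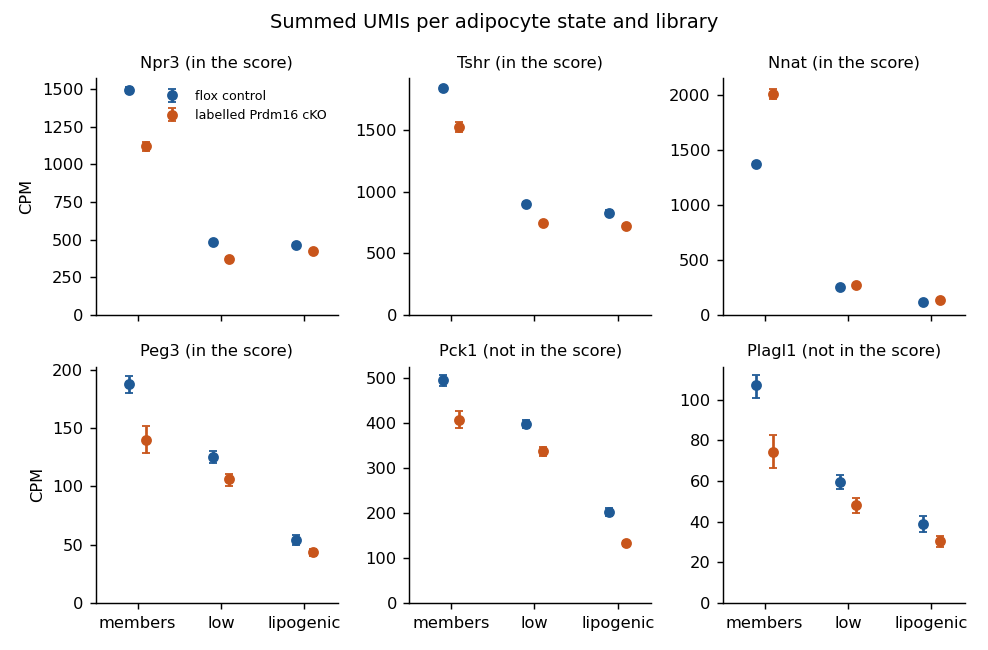
Levels in CPM (y axis, from 0) of the 4 selection genes and of Pck1 and Plagl1 in high nuclei ("members"), low nuclei and lipogenic nuclei (x axis), for the flox control (blue) and the library labelled Prdm16 cKO (orange), with exact Poisson 95% intervals. All 6 genes were highest in high nuclei of both libraries, which the rule, a ranking by their sum, favours for the 4 score genes. Nnat alone was higher in high nuclei of the cKO-labelled library than of the control.

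How far the 4 genes mark the same nuclei was measured by choosing high nuclei again with each gene left out of the score. Npr3 then remained higher in high than in low nuclei, at 1077 against 783 CPM for control nuclei and 648 against 505 CPM for cKO-labelled ones. Its log2 ratio was 0.46 (0.43 to 0.49) and 0.36 (0.30 to 0.42), where it had been 1.63 and 1.59 with Npr3 in the score. Peg3 kept part of its small difference in both libraries. Its log2 ratio was 0.33 in the control (0.25 to 0.41, against 0.59) and 0.22 among cKO-labelled nuclei (0.08 to 0.36, against 0.40). Tshr kept 0.22 (0.19 to 0.25) and 0.29 (0.25 to 0.34), against 1.03 and 1.04. Nnat kept least in the control: 729 CPM in high and 698 CPM in low nuclei, a log2 ratio of 0.06 (0.02 to 0.10), where it had been 2.45. Among cKO-labelled nuclei the ratio of Nnat was 0.38 (0.32 to 0.44), where it had been 2.87. These intervals again cover counting error only.

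**Figure D3:**
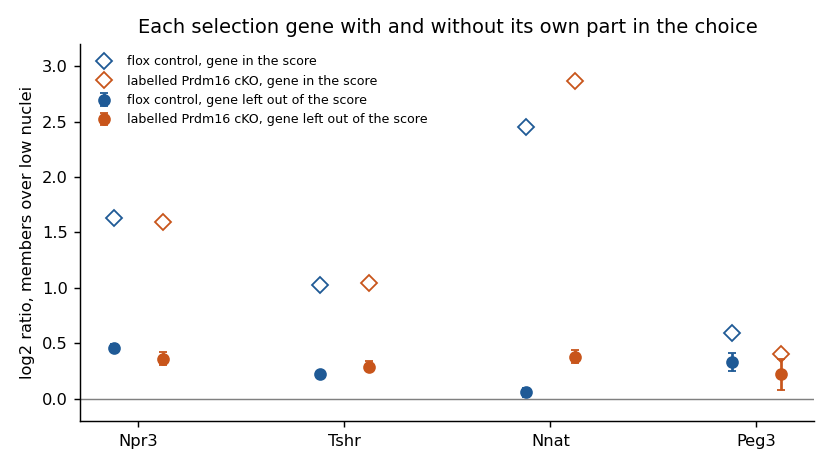
log2 ratio of high over low nuclei (y axis) for each selection gene, when the gene is in the score (open diamonds) and when the nuclei are chosen without it (filled circles, with exact 95% intervals), for the flox control (blue) and the library labelled Prdm16 cKO (orange). All filled circles lie above 0 and between 0.06 and 0.46, below the open diamonds.

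From nucleus to nucleus the 4 genes were only weakly related. Over the 2257 control nuclei left after the first cut, Spearman's rho was 0.21 for Npr3 with Tshr, 0.10 for Npr3 with Nnat and -0.03 for Tshr with Nnat, and over the 1346 cKO-labelled nuclei it was 0.20, 0.09 and 0.06. These are descriptions over nuclei of the same library. Sparse counts can hold such values down, and how far they did so here was not tested. The label thus names a sum of 4 genes that were only in part high in the same nuclei.

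Plagl1 and Pck1, which did not enter the score, were higher in high nuclei of both libraries. Plagl1 was at 107 CPM in control and 74.2 CPM in cKO-labelled high nuclei, against 59.3 and 47.9 CPM in low nuclei (log2 ratios 0.85 and 0.63). With Tshr left out of the score, the cKO-labelled ratio of Plagl1 turned to -0.06. Pck1 was at 494 and 407 CPM against 397 and 337 CPM (0.32 and 0.28), below the 1.5-fold used here to count a gene. Both were lower still in lipogenic nuclei, at 38.7 and 30.3 CPM for Plagl1 and 202 and 133 CPM for Pck1. Both had been listed as markers from these same nuclei, so this is no independent support for the label.

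Few other genes separated high from low nuclei. Of 11776 genes outside the rule with at least 50 UMIs in each library, 42 were at least 1.5 times higher in high nuclei in both libraries (0.357%) and 142 at least 1.5 times lower (1.21%). The median log2 ratio of all genes was -0.04 in each library. Of the 42 higher genes, 27 were protein-coding and 15 were annotated as other transcript types, and 29 of the 42 were also at least 1.5 times above lipogenic nuclei in both libraries, where 2.73% of all genes were. Genes of the same nuclei were used to define the groups, so these counts carry no test.

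Signalling genes were among those that ranked highest. Rapgef3, which encodes the cyclic AMP sensor Epac1, was at 33.6 CPM in control and 23.9 CPM in cKO-labelled high nuclei, against 14.4 and 12.4 CPM in low nuclei (log2 ratios 1.22 and 0.95) and 6.14 and 6.75 CPM in lipogenic nuclei. Grb14, an adapter that restrains insulin receptor signalling, was at 226 and 175 CPM against 108 and 94.6 CPM (1.07 and 0.88). Bmp3, a secreted member of the bone morphogenetic protein family, was at 20.3 and 19.2 CPM against 10.6 and 9.80 CPM (0.93 and 0.97). In these 3 genes the level in high nuclei was above that in low nuclei in each library, by more than the counting error.

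Other genes of the 15 highest encode a range of matrix, transport and enzyme proteins. Thbs2, the matrix glycoprotein thrombospondin 2, was at 10.4 and 6.32 CPM in high nuclei against 4.47 and 2.71 CPM in low nuclei (log2 ratio 1.22 in each library). Adamts5, a protease that cuts the proteoglycan aggrecan, was at 515 and 389 CPM against 277 and 223 CPM. Slc40a1, the iron exporter ferroportin, rested on 61 and 21 UMIs in high nuclei, with log2 ratios of 1.11 and 1.24. Slc2a12, the glucose transporter GLUT12, rested on 74 and 30 UMIs, with ratios of 0.84 and 0.93. Folh1, a carboxypeptidase that removes glutamate, was at 32.0 and 26.2 CPM against 18.9 and 14.9 CPM.

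The remaining genes of the 15 highest were Gmpr (guanosine monophosphate reductase), Zfyve28 and 5 transcripts without a given name. Gm4876 was the most abundant of these in high nuclei, with 13028 and 3201 UMIs and log2 ratios of 0.83 and 0.81. It is annotated as antisense, and without stated strand handling its reads cannot be told apart from those of an overlapping gene. Gm47416 was at 14.0 and 16.6 CPM against 6.44 and 6.11 CPM, and Gm31517 at 27.2 and 29.5 CPM against 11.3 and 14.4 CPM. In lipogenic nuclei Gm31517 was at 20 and 34.3 CPM. Its cKO-labelled level there was thus not below that of high nuclei (log2 ratio of high over lipogenic nuclei -0.22, -0.51 to 0.06). Gm26569 and Gm28529 rested on 109 and 52 UMIs in control and 31 and 20 in cKO-labelled high nuclei, and Gm28529 was lower in high nuclei once nuclei were thinned to 5000 UMIs (log2 ratios -0.26 and -0.04).

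Levels along the score were also compared between its ends, for genes already known to be higher in high nuclei. That choice favours a higher level at the top. When nuclei were split into 6 equal groups by score, the lowest 4 being low and the highest 2 high nuclei, Rapgef3 went from 9.23 to 42.0 CPM between the bottom and top group of control nuclei and from 11.2 to 26.5 CPM among cKO-labelled ones. It was level over the lowest groups, at 9.23 and 9.21 CPM in the first 2 of the control and 11.2, 10.4 and 11.3 CPM in the first 3 of the cKO-labelled library. Grb14 went from 75.9 to 270 CPM and from 57.0 to 177 CPM. Plagl1 went from 38.4 to 114 CPM and from 33.8 to 68.2 CPM, with its highest cKO-labelled value of 79.6 CPM in the fifth group. The groups held 254 to 452 control and 148 to 347 cKO-labelled nuclei, so the cKO-labelled values at the top are the least precise.

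**Figure D4:**
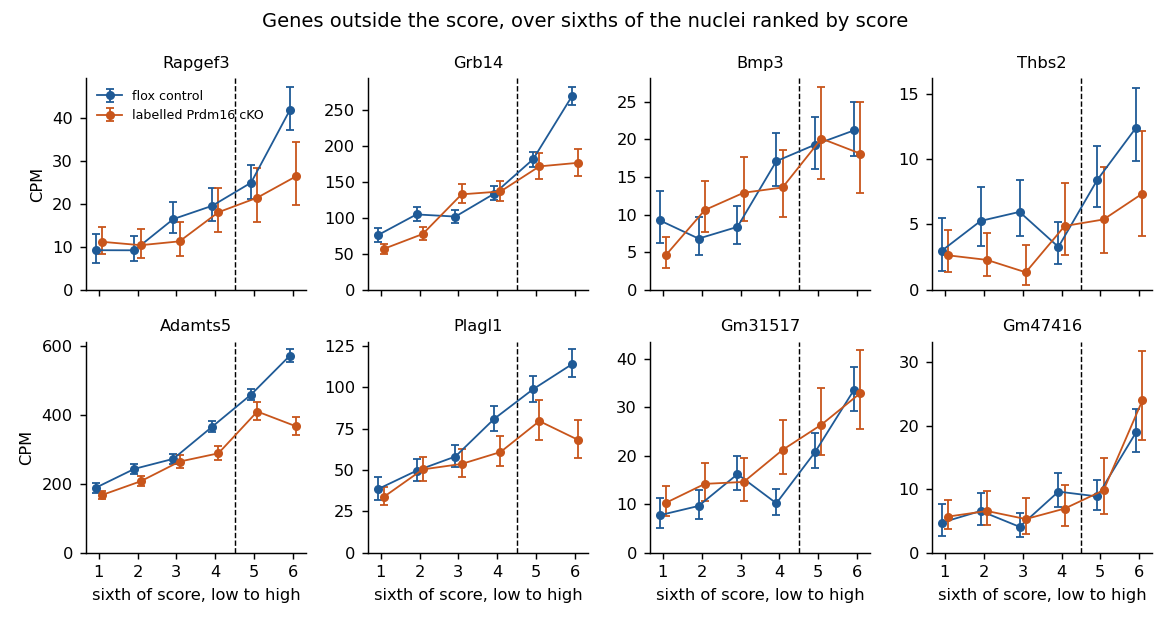
Levels in CPM (y axis, from 0) of 8 genes outside the score over 6 equal groups of nuclei ranked by score from low to high (x axis), for the flox control (blue) and the library labelled Prdm16 cKO (orange), with exact Poisson 95% intervals. The dashed line separates low from high nuclei. In both libraries the top group lies above the bottom group in all 8 genes, which their choice as genes higher in high than in low nuclei favours.

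Genes lower in high nuclei were mostly higher in lymphocyte nuclei. The 10 lowest by the rule for named genes were 5330417C22Rik, Lin7a, Galnt16, Cpe, Sncaip, Cela1, Nrxn3, Kctd14, Fgf7 and Fat3. Among nuclei low in other cell types' markers, 3 of them turned direction: Nrxn3 in the control (log2 ratio 0.09), and Lin7a (0.71) and Sncaip (0.13) among cKO-labelled nuclei. These turns rest on few molecules. Before that restriction Nrxn3 had 81 UMIs in control high nuclei, and Lin7a had 5 and Sncaip 17 in cKO-labelled ones. Nrxn3 also turned among cKO-labelled nuclei for the highest 50% (0.02), without Npr3 (0.57) and without Tshr (0.23) in the score. Cela1, a pancreatic elastase, was at 14.5 CPM in control and 48.0 CPM in cKO-labelled high nuclei, against 34.6 and 109 CPM in low nuclei. All 10 were higher in the lymphocyte nuclei of both libraries than in high nuclei, as were 128 of the 142 lower genes (90.1%), against 49.5% of all genes measured and 4.76% of the 42 higher ones. Markers of other cell types (72 genes) summed to 959 and 1022 CPM in high nuclei and to 1092 and 1337 CPM in low nuclei. Among only the nuclei at or below the gate's median of these markers, 32 genes passed the fold downwards in place of 142. This setting kept only 485 control and 156 cKO-labelled high nuclei. Fewer genes could then reach the UMI minimum, so these counts are not out of the same number of genes. The part of RNA from other cells in these lower genes was not otherwise tested.

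Mature adipocyte genes were slightly higher in high nuclei and lipogenic genes lower. Of 16 adipocyte identity genes, 14 were above low nuclei in both libraries, none of them 1.5-fold, with median log2 ratios of 0.17 and 0.13 beside -0.04 for all genes and 22.0% of all genes above low nuclei in both libraries. The fatty acid carrier Fabp4, for example, was at 1757 and 1365 CPM against 1322 and 1207 CPM, and the lipid droplet protein Plin1 at 823 and 909 CPM against 696 and 804 CPM. Adipogenic transcription factors leaned the other way. Of 22 measured outside the rule, 14 were below low nuclei in both libraries (38.1% of all genes) and 3 above, with a median of -0.07 in each library. Of 20 measured genes of fatty acid synthesis beyond Acly and Elovl6, 17 were below low nuclei in both libraries, where 38.1% of all genes were, and none passed the fold (medians -0.46 and -0.41). Aacs, which makes acetoacetyl-CoA for lipid synthesis, was at 173 CPM in control and 388 CPM in cKO-labelled high nuclei against 348 and 464 CPM in low nuclei. G6pdx, an enzyme of the pentose phosphate pathway, was the single one above low nuclei in both, at 49.3 and 47.3 CPM against 42.2 and 43.1 CPM. Against lipogenic nuclei all 20 were lower (31.3% of all genes) and 16 passed the fold (3.33% of all genes), which the removal by Acly and Elovl6 favours.

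Other genes of the pathway of Tshr did not lean one way. The list that holds Npr3, of natriuretic peptide and cyclic GMP genes, was mostly below low nuclei. In the thyrotropin receptor and cyclic AMP list, 5 of 19 measured genes were above low nuclei in both libraries (22.0% of all genes) and 5 below (38.1%), the former share being near that of all genes, with medians of -0.08 and 0.04, and Rapgef3 was the single one past the fold. Prkar2b, a regulatory subunit of protein kinase A, was at 1658 and 1362 CPM against 1523 and 1295 CPM. In the natriuretic peptide and cyclic GMP list, 7 of 8 measured genes were below low nuclei in both libraries (38.1% of all genes), with medians of -0.61 and -0.53. Gucy1a1, Gucy1a2 and Pde5a passed the fold downwards, beside 1.21% of all genes. Each of these was higher in lymphocyte than in high nuclei of both libraries. Gucy1a1, a subunit of the nitric oxide receptor guanylyl cyclase, was at 8.80 and 7.25 CPM against 15.6 and 13.5 CPM. Npr2, a receptor for C-type natriuretic peptide, was at 31.7 and 28.5 CPM against 30.1 and 27.6 CPM. Npr1, a further natriuretic peptide receptor, had log2 ratios of -0.31 (-0.84 to 0.21) and -0.43 (-1.34 to 0.39). Pericyte markers summed to 9.34 CPM in control high nuclei and 17.7 CPM in low nuclei, and their cKO-labelled sums were 22.7 and 22.5 CPM. The control median of the natriuretic peptide and cyclic GMP list was -0.20 without likely doublets and -0.07 among nuclei low in other cell types' markers.

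Imprinted genes did not lean in a single direction. Of 22 measured imprinted genes outside the score, 4 were above low nuclei in both libraries (Plagl1, Mest, Sgce and Blcap) and 7 below, with medians of 0.01 and -0.05, and Plagl1 alone passed the fold. These counts are near the shares over all genes, 22.0% above and 38.1% below. Meg3, a maternally expressed non-coding RNA, was at 35.4 and 63.6 CPM in high nuclei against 51.9 and 88.4 CPM in low nuclei. Mest, a paternally expressed gene linked to fat expansion, was at 9.72 CPM (126 UMIs) in control high nuclei against 2.98 CPM in low ones, and among cKO-labelled nuclei at 3.51 CPM (15 UMIs) against 2.50 CPM.

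Oxidative and clock genes leaned lower in high nuclei. Of 23 subunit genes of oxidative phosphorylation, 18 were below low nuclei in both libraries, where 38.1% of all genes were, and none was past the fold. Their medians were -0.10 and -0.19, beside -0.04 for all genes. Of 19 clock genes, 14 were below in both, again beside 38.1% of all genes (medians -0.26 and -0.13), among them Hlf, a clock-controlled transcription factor, at 42.1 and 53.8 CPM against 70.0 and 67.1 CPM. Arntl, the core activator BMAL1, was at 40.9 CPM in control high nuclei against 31.0 CPM in low ones, and among cKO-labelled nuclei at 13.6 against 12.2 CPM. Structural matrix genes leaned higher in the control, with 13 of 24 above low nuclei in both libraries (22.0% of all genes), 5 below, and medians of 0.24 and 0.06.

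High nuclei were also compared between the libraries. This count asks for a single ratio past the fold, while that of high against low nuclei asks for both libraries. The counts of these comparisons are therefore not alike. Of 11353 genes measured, 583 were at least 1.5 times higher in cKO-labelled than in control high nuclei with an interval off 0 (5.14%), and 231 were lower (2.03%). In low nuclei the same shares were 4.74% and 1.65%, and in lipogenic nuclei 5.36% and 1.87%. The median log2 ratio of all genes was 0.04 in high nuclei. High nuclei of the cKO-labelled library rested on 4274814 UMIs and those of the control on 12958328.

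Pancreatic genes led the higher genes. Among those named, Ctrb1, Pdia2, Cpb1, Rbpjl, Pnlip, Cela1 and 2210010C04Rik belong to the exocrine pancreas, and each of these was higher in lymphocyte than in high nuclei of both libraries. Cpb1, a digestive carboxypeptidase, was at 8.95 CPM in control and 48.4 CPM in cKO-labelled high nuclei, and at 60.7 and 240 CPM in lymphocyte nuclei. The 6 acinar markers summed to 29.9 and 139 CPM in high nuclei, to 65.3 and 255 CPM in low nuclei and to 37.2 and 226 CPM in lipogenic nuclei. In the other direction Defa24, a defensin of intestinal Paneth cells, was at 4.86 and 0.702 CPM in high nuclei and at 11.7 and 0.473 CPM in lymphocyte nuclei.

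Some genes of growth hormone signalling and of the fasting and insulin list differed between the libraries within high nuclei. Cish, a suppressor of cytokine signalling induced through STAT5, was at 7.87 CPM (102 UMIs) in control and 48.4 CPM (207 UMIs) in cKO-labelled high nuclei, a log2 ratio of 2.62 (2.27 to 2.98). Its ratio was 0.74 in low nuclei (29.8 and 49.8 CPM) and -0.02 in lipogenic nuclei (29.2 and 28.7 CPM). The control high nuclei thus stood apart as the lowest of the 6 groups. Igf1, the growth factor made under growth hormone, was at 449 and 877 CPM in high nuclei (0.97, 0.91 to 1.03), at 677 and 783 CPM in low nuclei and at 748 and 553 CPM in lipogenic nuclei. Socs2, a further suppressor of growth hormone signalling, was at 8.64 and 13.3 CPM in high nuclei and 17.4 and 20.4 CPM in low nuclei. Ghr, the growth hormone receptor, was at 15914 and 17697 CPM in high nuclei (0.15).

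Bcl6, a transcriptional repressor, was at 380 CPM in control and 152 CPM in cKO-labelled high nuclei (log2 ratio -1.33, -1.45 to -1.21). It was at 271 and 138 CPM in low nuclei and at 193 and 196 CPM in lipogenic nuclei, a log2 ratio of 0.02 in the latter. Klb, the co-receptor beta-klotho for FGF21, was at 116 and 41.9 CPM in high nuclei (-1.47), 90.9 and 51.3 CPM in low nuclei and 90.0 and 77.6 CPM in lipogenic nuclei. Of the 23 measured genes of the fasting and insulin list, 5 were past the fold upwards (Cish, Igf1, Socs2, Angptl8 and Ppp1r3b) and 3 downwards (Bcl6, Pdk4 and Angptl4), with a median of 0.01. Over all genes 5.14% were past the fold upwards and 2.03% downwards. Angptl8, a lipoprotein lipase inhibitor raised by feeding, was at 8.33 and 20.6 CPM, and Pdk4, the pyruvate dehydrogenase kinase raised by fasting, at 29.0 and 15.2 CPM. The feeding state of the mice is not given in the labels, so feeding and genotype cannot be told apart.

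Lipogenic genes were higher in the cKO-labelled library even among nuclei with little Acly and Elovl6. Of 20 measured, 15 were higher in high nuclei, where 56.7% of all genes were, with a median log2 ratio of 0.36. Of these, 6 were past the fold, beside 5.14% of all genes. The median was 0.38 in low nuclei, where all 20 were higher (60.2% of all genes), and 0.46 in lipogenic nuclei. Fasn, the fatty acid synthase, was at 188 CPM in control and 321 CPM in cKO-labelled high nuclei, and Srebf1, a transcription factor that drives it, at 81.2 and 151 CPM. Aacs had the highest ratio of the list in high nuclei (1.16) and Pgd the lowest (-0.19). Lymphocyte nuclei held 319 and 575 CPM of Acly and 242 and 516 CPM of Elovl6. High nuclei held less, at 228 and 361 CPM of Acly and 154 and 200 CPM of Elovl6. The part of released RNA in these library differences was not tested.

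Clock genes also differed between the libraries. Npas2 was at 22.1 and 6.08 CPM in high nuclei (log2 ratio -1.86) and Arntl at 40.9 and 13.6 CPM (-1.59), whereas Bhlhe40, a repressor of the clock, was at 24.3 and 55.0 CPM (1.18) and Dbp, a clock output gene, at 24.4 and 44.7 CPM (0.87). Npas2 and Arntl were lower in low and lipogenic nuclei too. Of 19 clock genes 15 were higher (56.7% of all genes), with 3 past the fold upwards (5.14% of all genes), 3 downwards (2.03%) and a median of 0.27, against 0.08 in low nuclei and 0.07 in lipogenic nuclei. The hour at which tissue was taken is not given in the labels, so hour and genotype cannot be told apart.

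Other named genes included transcriptional cofactors and receptors. Vgll3, a cofactor of TEAD transcription factors, was at 47.6 CPM in control and 17.1 CPM in cKO-labelled high nuclei (log2 ratio -1.48). It was at 15.4 and 13.1 CPM in low nuclei (-0.24) and at 12.95 and 14.4 CPM in lipogenic nuclei (0.15). Tead4, which encodes such a TEAD factor, was at 12.7 CPM (164 UMIs) and 3.51 CPM (15 UMIs) in high nuclei. Ntrk2, the receptor of brain-derived neurotrophic factor, was at 193 and 88.4 CPM (-1.12), against 117 and 70.9 CPM in low nuclei. Trim12a rested on 143 and 7 UMIs in high nuclei (-2.75, -4.09 to -1.67) and was at 46.9 and 7.57 CPM in lymphocyte nuclei. Dtx4, Ttpa (the vitamin E carrier) and Gm42303 were lower by 1.88, 1.49 and 1.35 on the log2 scale.

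Of the higher genes outside the pancreas, Steap4, a metalloreductase of the cell membrane, was at 75.3 CPM in control and 260 CPM in cKO-labelled high nuclei (1.79), 113 and 246 CPM in low nuclei and 103 and 139 CPM in lipogenic nuclei. Zfp949 was at 34.6 and 121 CPM in high nuclei (1.81), with ratios of 1.65 in low and 1.36 in lipogenic nuclei, and lymphocyte nuclei held 24.9 and 91.4 CPM. B630019A10Rik had ratios of 2.28, 2.57 and 2.13 in high, low and lipogenic nuclei. All 12 genes named as lower in cKO-labelled high nuclei were also lower in low nuclei, and 9 of them in lipogenic nuclei, where 42.6% of all genes were lower. Whether any ratio differs between the groups of nuclei was not tested, since each rests on 1 library per genotype.

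**Figure D5:**
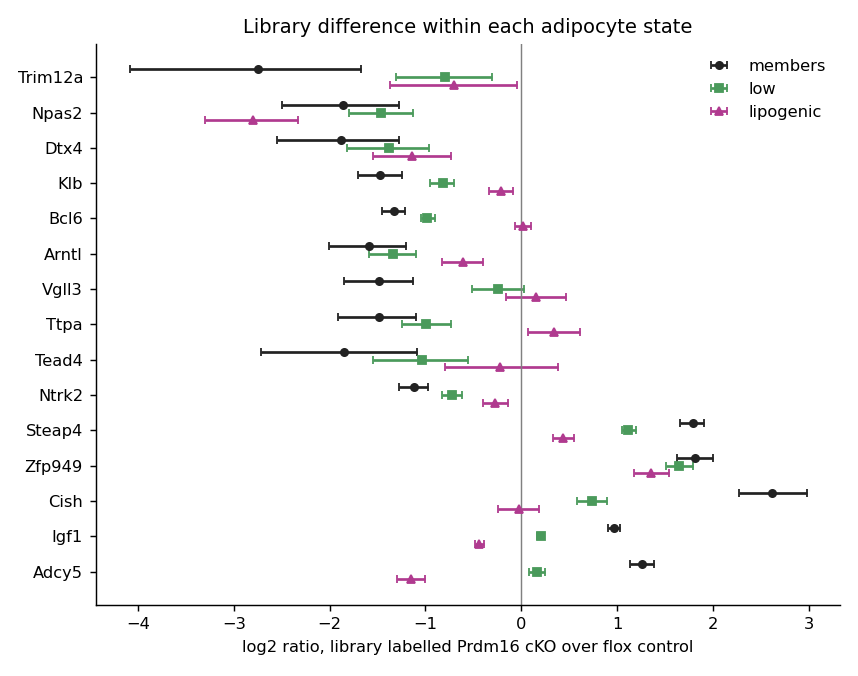
log2 ratio of the library labelled Prdm16 cKO over the flox control (x axis) for 15 genes (y axis) in high ("members", black), low (green) and lipogenic nuclei (purple), with exact 95% intervals for counting error. All 15 lie farther from 0 in high than in low nuclei, which the choice of genes by their ratio in high nuclei favours. Zfp949 is above 1 and Arntl below 0 in all 3. The genes drawn are a selection, with Igf1 and Adcy5 added from the gene lists. Of the named genes not drawn, B630019A10Rik (2.28 in high and 2.57 in low nuclei) and Defa24 (-2.79 and -3.02) lie farther from 0 in low nuclei.

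Structural matrix genes leaned lower in cKO-labelled high nuclei. Of 23 measured, 17 were lower, as were 43.3% of all genes, and the list's median was -0.27. In low nuclei 12 of 23 were lower (39.8% of all genes), and the median was -0.01. Nid1 (nidogen, a basement membrane protein, 162 and 104 CPM), Thbs1 (10.5 and 5.61 CPM) and Thbs2 were past the fold downwards, beside 2.03% of all genes. Col6a1 was past it upwards (5.09 and 8.66 CPM), beside 5.14% of all genes. Adipocyte identity genes had a median of -0.14, with 10 of 16 lower and none past the fold. Among 21 imprinted genes 11 had a ratio above 0 and 10 below, the median being 0.00, and Mest had the lowest ratio (-1.47, -2.35 to -0.69). In the thyrotropin receptor and cyclic AMP list, 2 of 19 measured genes were past the fold upwards, beside 5.14% of all genes. These were Adcy5 (87.8 and 211 CPM) and Gnal (47 and 30 UMIs, ratio 0.95), and the list median was -0.06.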

How the data were processed

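The deposited matrices hold raw UMI counts (whole numbers for each gene and barcode). The authors made them with Cell Ranger 6.1.2 against mm10, as the submitters' processing notes list. Not given in the sources used here: annotation, treatment of intronic and antisense reads, barcode filter. The series title and design text name other perivascular fat and total RNA, and the sample labels (mesenteric, nuclear RNA) were followed. Of 32285 genes, 32158 had a position in GENCODE release M21 (GRCm38). Depth was 108987031 and 70895490 UMIs.

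Counts were summed per library and group of nuclei with scipy 1.17.1, pandas 2.3.3 and numpy 2.4.6 under Python 3.11.15 and scaled to CPM, with exact 95% Poisson intervals for levels, conditional binomial intervals for ratios and Clopper-Pearson intervals for shares. The script for ratios was tested on simulated data. A gene counted as measured with at least 50 UMIs over the groups compared (in each library, for high against low nuclei), and as past the fold at 1.5 times, in both libraries for groups of nuclei, or with an interval off 0 between libraries. Named genes were the 15 highest and 10 lowest by the log2 ratio of the library nearer 0, the 12 highest and 12 lowest between libraries by the interval bound nearer 0, up to 4 genes of a list, and genes on which a paragraph turns. The high nuclei and the gene lists were chosen with earlier results of these data known.

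Doublets were left in. Scrublet (scanpy 1.11.5) marked 0.0603% and 0.0254% of nuclei by its own threshold, too few to have worked, and an alternative left out the highest scores at a preset rate of 0.8% per 1000 nuclei (1079 and 495 nuclei, of them 64 and 7 high nuclei). Other alternatives changed the cuts, the score genes, depth, scaling, the gene minimum and the fold. Some genes that met the rule for named genes or belong to a marker list are not reported by name here.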

Additional observations from a re-analysis of the deposited data

Results flagged for a closer look

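Adcy5, an adenylyl cyclase of fat cells, differed between the libraries in opposite directions in high and lipogenic nuclei. Its cKO-labelled over control log2 ratio was 1.26 in high nuclei (87.8 and 211 CPM) and -1.15 in lipogenic nuclei (83.4 and 37.5 CPM). It was 1 of 12 genes past the fold upwards in high and downwards in lipogenic nuclei, and 6 genes had the reverse pattern, of 11315 measured in both. Nap1l5, an imprinted gene, was higher in high than in low nuclei in the control (log2 ratio 0.68, 43 and 39 UMIs) and lower in the cKO-labelled library (-1.47, 6 and 56 UMIs). It was 1 of 6 genes of 11776 with that pattern, and 3 had the reverse. These differences between groups were not tested, since each rests on 1 library per genotype.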

How the results depend on the processing

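No paired analysis was possible because each genotype has 1 library. Limits are set by that single library per genotype, by released RNA, and by depth in genes of few UMIs. The share of high nuclei was above the cKO-labelled value in the control in each setting except cuts set within each library, which fix 22.2% in both. For the highest 25% it was 22.9% (control) and 9.15% (cKO-labelled), 43.8% and 20.9% for the highest 50%, 42.6% and 22.3% with lipogenic nuclei kept, 28.6% and 14.6% without Npr3 in the score, 14.4% in the cKO-labelled library without Tshr, and 14.3% there among nuclei low in other cell types' markers (chosen after seeing the data). Genes higher in high than in low nuclei numbered 42, and 86 with lipogenic nuclei kept, 21 without Npr3, 83 and 16 at gene minimums of 20 and 200 UMIs, and 4 at a fold of 2. Genes lower numbered 142, and 94 for the highest 50%, 66 without doublets, 76 after thinning to 5000 UMIs, 256 and 40 at the 2 minimums, 20 at a fold of 2 and 32 among nuclei low in other types' markers. The last of these settings kept fewer nuclei, so fewer genes could reach the UMI minimum. Between libraries, 583 higher genes became 368 after thinning, 196 at a minimum of 200 and 124 at a fold of 2, and 231 lower ones 105 and 82 at the last 2. Median log2 ratios of high over low nuclei moved as follows. Cyclic GMP list: control -0.20 without doublets and -0.07 among nuclei low in other types' markers, cKO-labelled -1.25 after thinning. Lipogenesis: control -0.36 with cuts per library, -0.72 with lipogenic nuclei kept and -0.23 without Nnat, cKO-labelled -0.29 for the highest 50%, -0.60 and -0.16 for the latter 2. Adipocyte identity: control 0.14 for the highest 25% and 50%, 0.13 with cuts per library, 0.23 with lipogenic nuclei kept, 0.09 without Tshr and 0.21 with median-ratio size factors, cKO-labelled 0.22 with lipogenic nuclei kept, 0.09 without Tshr and 0.07 among nuclei low in other types' markers. Clock: control -0.44 without Nnat. Between libraries, lipogenesis moved to 0.73 with cuts per library, 0.57 with lipogenic nuclei kept and 0.50 without Nnat, and adipocyte identity to -0.20 after thinning and -0.18 with size factors. Among named genes the direction turned for Gm28529 after thinning (-0.26 and -0.04), Plagl1 in the cKO-labelled library without Tshr (-0.06), Nrxn3 there for the highest 50% (0.02), without Npr3 (0.57) and without Tshr (0.23), and, among nuclei low in other types' markers, Nrxn3 in the control (0.09) and Lin7a (0.71) and Sncaip (0.13) in the cKO-labelled library. None of the 27 genes compared between libraries changed direction in 405 values. Most of them had been chosen for their large ratios between these same libraries, which favours this. Apart from settings that change which nuclei, genes or folds are counted, the cause of these moves was not tested.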

Other observations

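Some further genes of the 42 that were higher in high nuclei of both libraries were chosen after their values were seen. Ptgfr, the receptor of prostaglandin F2 alpha, was at 21.4 CPM in control high nuclei and 13.6 CPM in low nuclei (log2 ratio 0.66, and 0.62 in the cKO-labelled library). Hpgd, which degrades prostaglandins, was at 81.3 and 49.0 CPM (0.73 in each library). Timp4, an inhibitor of matrix proteases, was at 14.7 and 9.26 CPM (0.67 and 0.78). Kirrel, an adhesion protein of the immunoglobulin family, was at 349 and 161 CPM (1.12 and 0.73). All 4 were past the fold in both libraries and none had a part in the score.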
